A study of Mus musculus with 8 samples.

Results

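The expression of 10 chemokine ligand genes was followed in macrophages of mouse pancreatic islets after a high-fat diet (HFD) or a chow diet. They were Cxcl9, Cxcl10, Cxcl16, Cxcl2, Ccl2, Ccl3, Ccl4, Ccl5, Ccl6 and Ccl7. Members were the rows of the deposited count table whose symbol equalled 1 of these 10 names. Each name matched 1 row, giving 10 of the 48440 genes in the table. The cells were sorted as CD11b+ and F4/80+ from islets of male wild-type C57BL/6J mice. All mice were 16 weeks old at collection. The HFD group ate a diet of 45% fat, 20% protein and 35% carbohydrate (19.67 kJ/g) for the last 8 weeks. The chow group ate standard chow of 8% fat, 21% protein and 71% carbohydrate (10.88 kJ/g) over the same period. There were 4 HFD libraries (replicates 5 to 8) and 4 chow libraries (replicates 1 to 4). Each library pooled extracts from 2 mice, so differences between mice within a pool cannot be seen. The comparison addressed how islet macrophage expression differs after the high-fat diet.

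Chemokines are small secreted proteins that steer leukocytes along concentration gradients by binding G-protein-coupled receptors on those cells. The CXC and CC families are named for the spacing of their first conserved cysteines. Macrophages are a main source of both, and toll-like receptor, NF-kB and interferon signals are known to induce many of the genes. Cxcl9 and Cxcl10 bind CXCR3 on activated T cells and NK cells. Cxcl16 is made as a membrane-anchored protein that binds CXCR6, and it also takes up oxidised lipoprotein. Cxcl2 attracts neutrophils through CXCR2. Ccl2 and Ccl7 recruit monocytes through CCR2. Ccl3, Ccl4 and Ccl5 attract monocytes and T cells, Ccl3 and Ccl5 in part through CCR1, and mouse Ccl6 acts through CCR1.

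Library totals ranged from 4288665 to 6391247 counts. Levels are given as CPM, each library's counts relative to its total after TMM, a scaling that sets the bulk of genes equal between libraries. The sort markers were abundant in every library. Itgam and Adgre1, which encode CD11b and F4/80, and the macrophage receptor gene Csf1r had edgeR adjusted p-values of 0.987 each between diets. Of the 6 macrophage markers, 0 were called, 2 had log2 fold changes above 0 and 4 below. Mertk, a receptor gene for uptake of dying cells, was at 131 ± 65.0 CPM in HFD and 42.0 ± 29.4 CPM in chow (log2 fold change 1.65, SE 0.47, edgeR adjusted p = 0.707). Fcgr1 ran the other way, at 35.0 ± 15.3 CPM in HFD and 59.2 ± 46.2 CPM in chow (log2 fold change -0.76, SE 0.56). Of 8 T cell markers, Lck, Cd3g, Cd3e and Cd8b1 had 0 counts in all 8 libraries, and only Cd4 passed the filter on low counts. Of 8 NK cell markers, Ncr1, Gzma, Gzmb, Nkg7 and Klre1 had 0 counts throughout. Of 7 neutrophil markers, 6 had 0 counts throughout, Csf3r being the exception. Acinar transcripts summed to 1038 CPM in HFD replicate 7, and to 943 and 1929 CPM in chow replicates 3 and 4, against at most 87.8 CPM in the other 5 libraries. Stellate cell and fibroblast transcripts summed to 106 to 452 CPM in HFD and to 24.0 to 133 CPM in chow (two-sided exact permutation p = 0.0571; the smallest this design allows is 0.0286). The chow sum was mostly Rgs5, at 73.2 CPM on average against 51.0 CPM in HFD. Rgs5 was also most of the sum in HFD replicate 8, at 97.0 of 106 CPM. Col1a2 was at 1.41 to 64.7 CPM in HFD, lowest in replicate 8, and at most 0.944 CPM in chow. In HFD replicates 5 to 7, Col1a1 was at 72.5, 41.2 and 30.8 CPM and Dcn at 14.3, 5.38 and 6.53 CPM. In HFD replicate 8 each was at 0.201 CPM, below the 0.603 CPM that 3 counts make there. Both had 0 counts in chow. Dendritic cell markers summed to 154 to 289.8 CPM in HFD and to 273 to 327 CPM in chow (two-sided exact permutation p = 0.0857). On average Siglech was most of this sum in each diet, at 158 ± 57.1 CPM in HFD and 189 ± 24.0 CPM in chow. Of the 6 tested dendritic markers, 3 had log2 fold changes above 0 and 3 below. Among them Clec9a was at 24.6 ± 8.91 CPM in HFD and 71.6 ± 36.8 CPM in chow, without overlap (log2 fold change -1.54, SE 0.50, edgeR adjusted p = 0.752). Cd209a and Zbtb46 ran the other way, with log2 fold changes of 2.50 (SE 1.59) and 1.60 (SE 1.29), and overlapped between diets. Endocrine markers summed to 926 to 1812 CPM in HFD and to 444 to 1741 CPM in chow (two-sided exact permutation p = 0.6). Of the 8 endocrine markers, 7 had log2 fold changes above 0 and 1 below. Ins1 was at 432 ± 115 CPM in HFD and 422 ± 153 CPM in chow, and Ins2 at 247 ± 36.6 and 246 ± 88.2 CPM. Pcsk2 was at 40.3 ± 12.99 CPM in HFD and 9.07 ± 5.96 CPM in chow, without overlap (log2 fold change 2.15, SE 0.73, edgeR adjusted p = 0.752). The part of dendritic and endocrine cells in the ligand levels was not tested. In bulk libraries such as these, fewer cells expressing a gene and less of its RNA per cell cannot be told apart.

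On GRCm38, 3 of the genes lie on chromosome 5. Cxcl9 (ENSMUSG00000029417) spans 92321347 to 92328079 and Cxcl10 (ENSMUSG00000034855) 92346638 to 92348889, both on the minus strand. Cxcl2 (ENSMUSG00000058427) spans 90903871 to 90905938 on the plus strand. The other 7 lie on chromosome 11, where Cxcl16 (ENSMUSG00000018920) is apart from the CC genes. Ccl2 (ENSMUSG00000035385) and Ccl7 (ENSMUSG00000035373) are neighbours. Ccl5 (ENSMUSG00000035042, 83525778 to 83530518), Ccl6 (ENSMUSG00000018927, 83587882 to 83593087) and Ccl3 (ENSMUSG00000000982, 83647844 to 83649355) follow on the minus strand, and Ccl4 (ENSMUSG00000018930, 83662584 to 83664683) on the plus strand. Cxcl10 shares 133 exon bases with Art3 on the opposite strand, which had 2 counts over the HFD libraries and 10 over the chow libraries.

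The ligand genes spanned a wide range of levels. Per kilobase of exon, Cxcl16 stood highest, at 138 ± 23.5 CPM per kilobase in HFD and 202 ± 34.7 in chow (SD, n = 4). It was the only member whose libraries were all above those of the next gene, in both diets. In HFD it was followed by Ccl3 at 34.4 ± 2.94, Ccl6 at 31.0 ± 4.59, Cxcl9 at 22.0 ± 17.3, Cxcl10 at 17.5 ± 10.002, Ccl7 at 15.3 ± 30.7 and Ccl5 at 12.3 ± 8.70 CPM per kilobase. Ccl4, Cxcl2 and Ccl2 were at 4.99 ± 3.37, 4.99 ± 5.42 and 4.38 ± 4.85. In chow the order was Cxcl16, Ccl3, Ccl6, Cxcl10, Ccl5, Ccl2, Ccl7, Ccl4, Cxcl9 and Cxcl2. Below Cxcl16, the library ranges of each pair of neighbours in either order overlapped. Cxcl9 was rank 4 of the 10 in HFD, and rank 9 in chow at 3.13 ± 2.56 CPM per kilobase. With the longest basic transcript of the annotation in place of the union of exons, an alternative added after seeing the data, Ccl6 stood above Ccl3 and Cxcl9 was rank 5 in HFD and still rank 9 in chow.

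**Figure D1:**
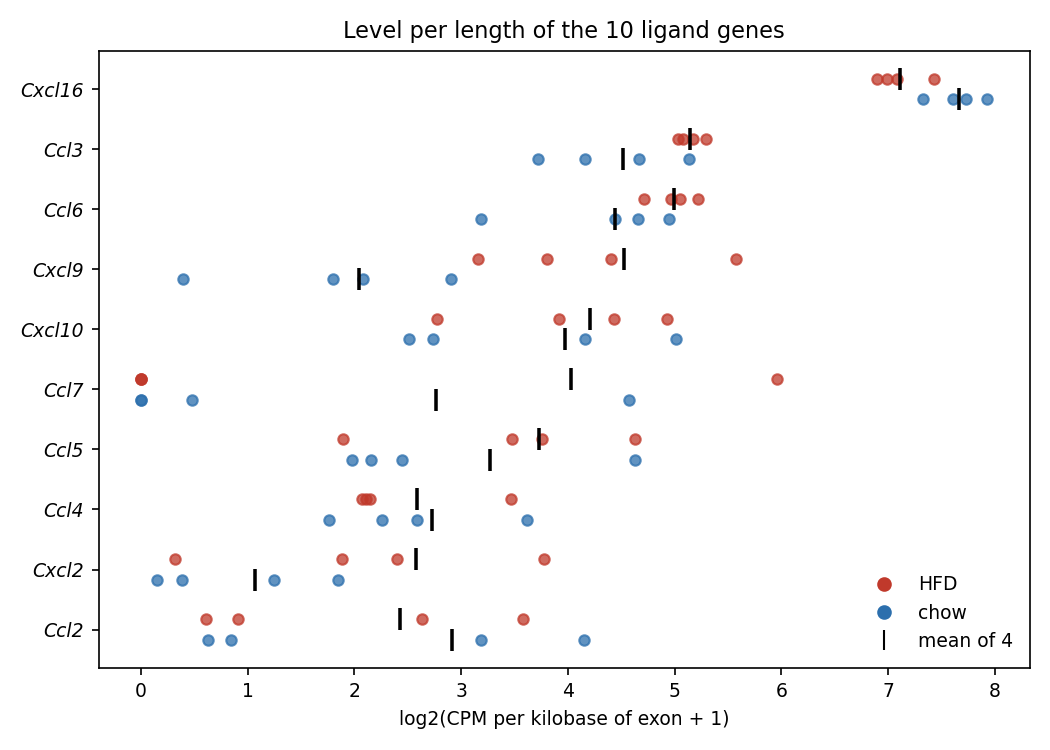
Level of each ligand gene on a log2 scale of CPM per kilobase of exon plus 1, HFD above chow for each gene. Each point is 1 library and each black tick the mean of 4 libraries. Cxcl16 lies to the right of all other members, and Cxcl9 is the gene whose HFD and chow points do not overlap.

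Of the 10 members, 9 passed the filter on low counts and Ccl7 did not. None of the 9 was called between diets by edgeR's quasi-likelihood test at an adjusted p of 0.05. The background was 0% called, 0 of 10129 genes tested. At an unadjusted p under 0.05, 2 of the 9 passed, Cxcl9 higher and Cxcl16 lower in HFD, against 5.35% of all tested genes. Cxcl9 was the only 1 of the 9 whose HFD libraries were all above its chow libraries, a pattern seen in 1.68% of tested genes. The reverse pattern, all HFD libraries below all chow libraries, was seen in 0 of the 9 and in 1.71% of tested genes. DESeq2 called 1 member, Cxcl9, among the 0.735% of genes it called. edgeR with no filter on low counts also called 1 member, again Cxcl9, with 0.25% of genes called. limma-voom called 0 members and 0.00987% of genes. The log2 fold changes of the 9 had a median of 0.50, with 6 above 0 and 3 below, beside a median of -0.02 over all tested genes.

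**Figure D2:**
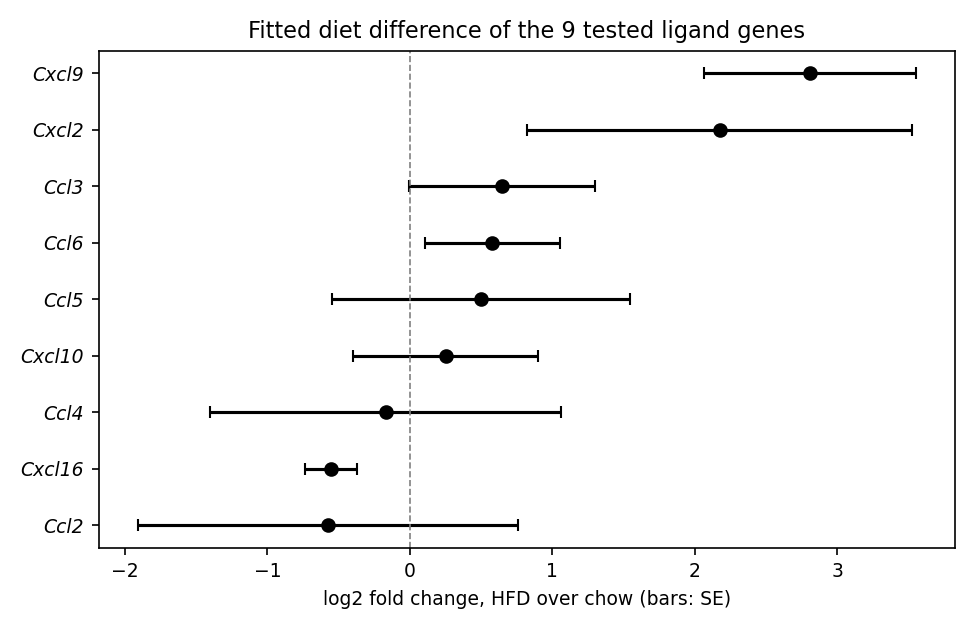
Fitted log2 fold change of HFD over chow for the 9 tested ligand genes, sorted by size, with bars of 1 standard error. Cxcl9 has the highest value, 2.81, and Cxcl16, at -0.55, has the shortest bar.

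Cxcl9, the interferon-gamma-induced CXCR3 ligand, had its 4 highest levels in the HFD libraries, although the difference did not pass the edgeR threshold. It was at 61.0, 24.0, 141 and 39.2 CPM in HFD replicates 5 to 8, against 19.5, 7.49, 9.74 and 0.944 CPM in chow replicates 1 to 4. The groups did not overlap, and HFD replicate 6 lay close to chow replicate 1, and the lowest chow value rested on 4 counts. The means were 66.3 ± 52.2 CPM in HFD and 9.43 ± 7.71 CPM in chow (SD, n = 4). The log2 fold change was 2.81 (SE 0.74), with an edgeR adjusted p of 0.585 and an unadjusted p of 0.00123, rank 21 of the 10129 tested genes. With DESeq2 the log2 fold change was 2.81 (SE 0.74, adjusted p = 0.0295). Its adjusted p lay between 0.0065 (no filter on low counts) and 0.976 (without HFD replicate 7) across the alternatives. Without HFD replicate 7, which held the highest level, the log2 fold change was 2.13 (SE 0.85). In the 5 libraries with low acinar transcripts it was 1.60 (SE 0.85).

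Cxcl10, the other CXCR3 ligand measured here, is induced by type I as well as type II interferon and lies next to Cxcl9 on chromosome 5. Its levels overlapped between the diets. It was at 31.8, 13.2, 66.4 and 46.4 CPM in HFD replicates 5 to 8, against 10.6, 70.7, 38.1 and 12.7 CPM in chow replicates 1 to 4. The highest library was chow replicate 2 and the groups overlapped over nearly their whole range. The log2 fold change was 0.25 (SE 0.65, edgeR adjusted p = 0.987), and its sign turned in 5 of the alternatives. The ratio of Cxcl9 to Cxcl10 CPM was 1.92, 1.82, 2.13 and 0.844 in HFD and 1.85, 0.106, 0.255 and 0.0741 in chow. Chow replicate 1 thus had a ratio within the range of HFD, while chow replicates 2 to 4 lay below every HFD library. By CPM, HFD replicate 8 and chow replicates 2 to 4 had more Cxcl10 than Cxcl9. These ratios are not divided by gene length, and which gene was higher in HFD depended on the length used. Per kilobase of exon, Cxcl9 averaged 22.0 and Cxcl10 17.5 CPM in HFD. With the longest basic transcript they averaged 23.0 and 29.2. The related ligand Cxcl11 had 0 counts in all 8 libraries. The cytokine genes Ifng, Ifnb1, Tnf and Il1b were named after their values were seen. Ifng likewise had 0 counts, and Ifnb1 had 2 counts over the HFD libraries and 0 in chow. Il1b was at 72.9 ± 38.7 CPM in HFD and 207 ± 33.5 CPM in chow (log2 fold change -1.51, SE 0.35, edgeR adjusted p = 0.585, unadjusted p = 0.000381). Tnf was at 8.07 ± 4.25 CPM in HFD and 3.84 ± 1.36 CPM in chow (log2 fold change 1.07, SE 1.13).

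The promoters of Cxcl9 and Cxcl10 are shown because these neighbouring genes share a receptor and differed in pattern, and that of Cxcl2 because it is a known NF-kB target. The windows run from 250 bases before to 50 bases after the start of each entry. They come from RefSeq on GRCm38.p6, which held an entry for 5 of the 10 members. For Cxcl2 and Ccl3 the start of the entry is not the gene start given above. Distances below are counted from the start of the entry. Capitals mark matches on either strand to the interferon-response core GAAANNGAA or to the NF-kB (kappaB) motif. Cxcl9 is from chr5:92328030-92328329, minus strand, Cxcl10 from chr5:92348840-92349139, minus strand, and Cxcl2 from chr5:90903649-90903948, plus strand.
Cxcl9: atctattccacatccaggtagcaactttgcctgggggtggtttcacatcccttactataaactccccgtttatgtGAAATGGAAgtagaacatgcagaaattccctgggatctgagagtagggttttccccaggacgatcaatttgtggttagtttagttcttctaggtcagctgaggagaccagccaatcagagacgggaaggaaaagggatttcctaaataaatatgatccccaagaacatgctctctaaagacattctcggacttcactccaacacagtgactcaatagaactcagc
Cxcl10: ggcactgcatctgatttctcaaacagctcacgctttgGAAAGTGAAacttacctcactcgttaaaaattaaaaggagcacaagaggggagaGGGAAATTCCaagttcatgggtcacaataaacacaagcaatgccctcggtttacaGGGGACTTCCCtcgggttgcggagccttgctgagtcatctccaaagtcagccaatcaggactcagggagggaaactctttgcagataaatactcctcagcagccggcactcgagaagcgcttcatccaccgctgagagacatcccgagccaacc
Cxcl2: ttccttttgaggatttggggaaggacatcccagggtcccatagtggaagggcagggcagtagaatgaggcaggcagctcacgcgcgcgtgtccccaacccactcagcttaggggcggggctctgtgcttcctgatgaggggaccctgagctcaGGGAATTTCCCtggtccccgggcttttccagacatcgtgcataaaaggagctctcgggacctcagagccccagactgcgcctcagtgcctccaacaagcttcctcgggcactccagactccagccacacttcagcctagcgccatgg

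The interferon-response core matched 1 time in each of the Cxcl9 and Cxcl10 windows, 175 and 213 bases before the start. It was present in 8.56% of all 32851 promoter windows of the same length. The kappaB motif matched 3 times in Cxcl10, 159, 104 and 103 bases before the start, the last 2 overlapping each other. In Cxcl2 it matched 2 times, overlapping, 97 and 96 bases before the start. It was present in 8.46% of all windows, and both motifs together in 0.557%. Of the other members with an entry, Ccl3 held 1 match to the interferon-response core and Ccl6 held neither motif. These are matches of letters, not measured sites.

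Cxcl16 averaged lower in HFD, short of the edgeR threshold. Its highest library was 2.05 times its lowest, the smallest such ratio of the 10 members. It was at 358, 382, 406 and 519 CPM in HFD replicates 5 to 8, against 586, 639.8, 735 and 484 CPM in chow replicates 1 to 4. HFD replicates 5, 6 and 7 lay below every chow library, whereas HFD replicate 8 lay above chow replicate 4. The means were 416 ± 71.1 CPM in HFD and 611 ± 105 CPM in chow (SD, n = 4). The log2 fold change was -0.55 (SE 0.18), with an edgeR adjusted p of 0.752 and an unadjusted p of 0.00689. It stayed between -0.68 and -0.45 in the alternatives, whose adjusted p-values ran from 0.213 to 0.998. Cxcl16 (chromosome 11, 70453983 to 70459984, minus strand) shares 552 exon bases with Zmynd15 on the opposite strand, and its counts were not whole numbers in any of the 8 libraries. No strand information was given, so reads in the shared stretch cannot be assigned with certainty. Zmynd15 was at 65.3 ± 33.3 CPM in HFD and 90.9 ± 25.5 CPM in chow (log2 fold change -0.48, SE 0.40, edgeR adjusted p = 0.987).

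Cxcl2, the neutrophil attractant, was low and uneven. It was at 5.56, 0.521, 8.85 and 26.3 CPM in HFD replicates 5 to 8, against 0.225, 0.625, 5.39 and 2.83 CPM in chow replicates 1 to 4. HFD replicates 5, 7 and 8 were above every chow library and HFD replicate 6 was below 3 of them. The log2 fold change was 2.18 (SE 1.35, edgeR adjusted p = 0.987). It was 1.12 without HFD replicate 8, the library with the highest level, and 3.06 without chow replicate 3. In the 5 libraries with low acinar transcripts it was 4.55 (SE 2.16). The chow side of that fit was replicates 1 and 2, with 1 and 4 counts, so this value rests on levels near the floor. Among the other neutrophil attractants, Cxcl1 was at 0.795 and 3.16 CPM in HFD replicates 5 and 7, with 0 counts in the other HFD libraries and in chow. Cxcl3 and Cxcl5 had 0 counts in all 8 libraries, and so did their receptor gene Cxcr2.

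**Figure D3:**
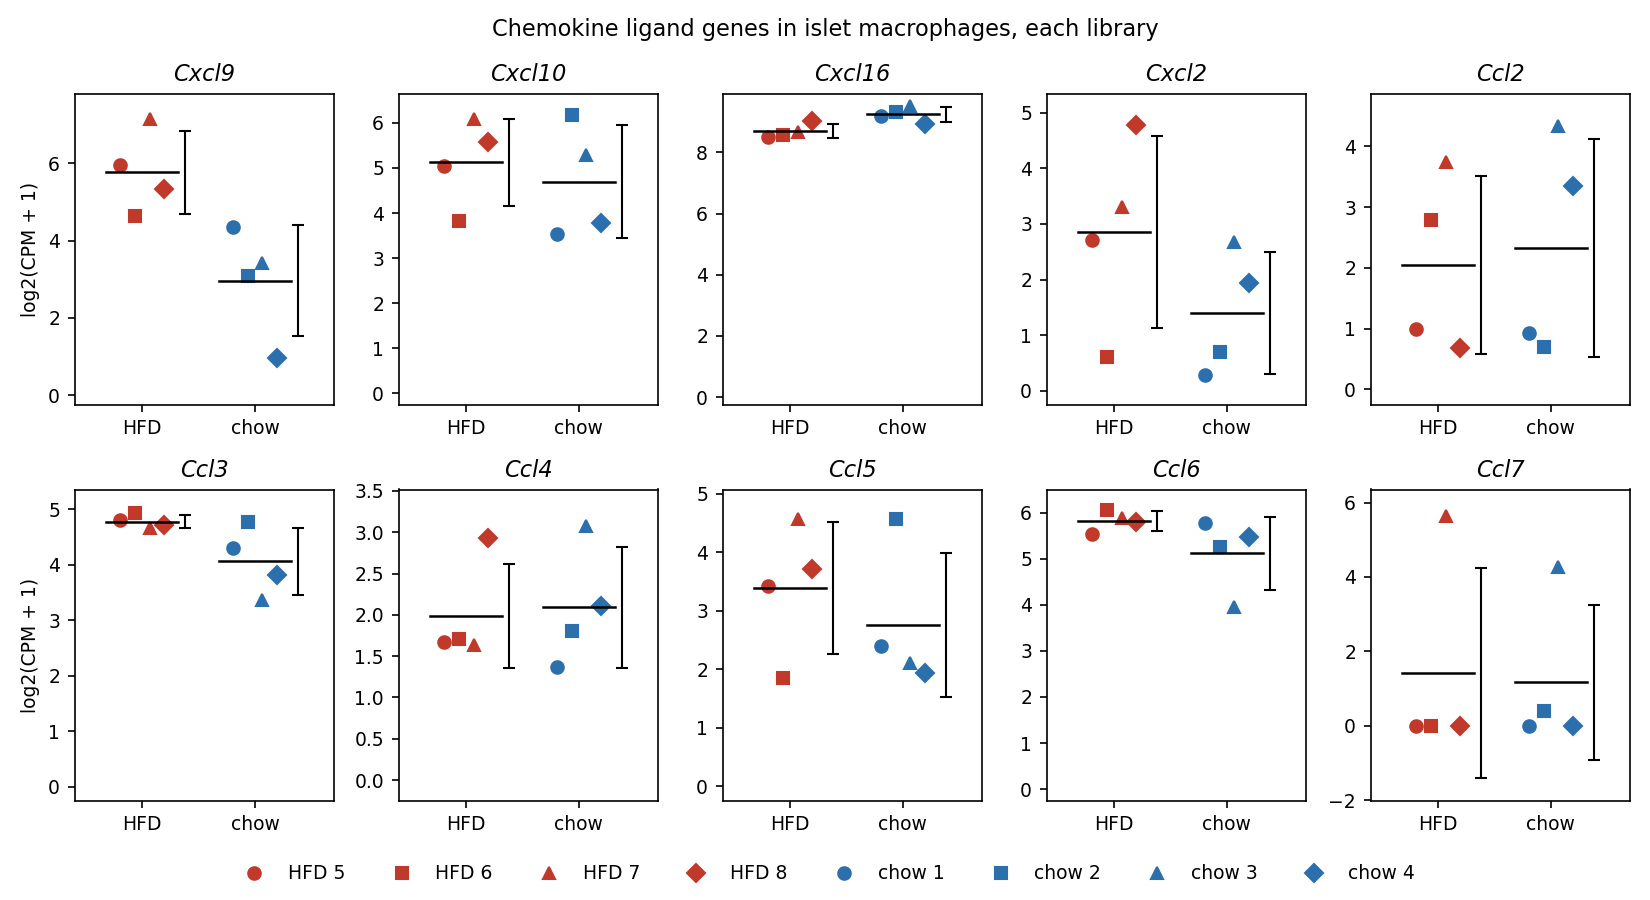
Each panel shows 1 ligand gene on a log2 scale of CPM plus 1, with the 4 HFD libraries left of the 4 chow libraries. Lines are means and bars SD, and marker shapes name the library. Cxcl9 separates the diets, Ccl3 and Ccl6 are tightly grouped in HFD, and Ccl7 is carried by HFD 7 and chow 3.

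The CCR2 ligands Ccl2 and Ccl7 marked libraries rather than a diet. Ccl2 was at 0.993, 5.90, 12.4 and 0.603 CPM in HFD replicates 5 to 8, against 0.899, 0.625, 19.1 and 9.20 CPM in chow replicates 1 to 4. Its log2 fold change was -0.58 (SE 1.33, edgeR adjusted p = 0.987) and turned to 0.50 without chow replicate 3. With the stellate and fibroblast sum as a covariate it was -2.72 (SE 1.88). Ccl7 was at 49.1 CPM in HFD replicate 7, on 233 counts, and had 0 counts in HFD replicates 5, 6 and 8. In chow it was at 18.2 CPM in replicate 3, on 88 counts, and at 0.312 CPM in replicate 2, with 0 counts in replicates 1 and 4. With 0 counts in a library, a level below 3 counts cannot be told from none, which is 0.521 to 0.708 CPM in these 5 libraries and covers counting error only. Ccl2 was also highest in chow replicate 3 and HFD replicate 7. These libraries, with chow replicate 4, were those with the acinar transcripts, and chow replicate 4 had Ccl2 without Ccl7. The part of acinar material in these levels was not tested. Ccl2 lies on chromosome 11 at 82035571 to 82037453 and Ccl7 beside it at 82045712 to 82047525, both on the plus strand. Their receptor gene Ccr2 was among the more abundant receptor genes, at 943 ± 174 CPM in HFD and 886 ± 184 CPM in chow.

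Ccl3 and Ccl6 were more even in HFD than in chow. Ccl3, also called MIP-1 alpha, was at 26.8, 29.3, 24.2 and 25.1 CPM in HFD replicates 5 to 8, against 18.6, 26.2, 9.33 and 12.98 CPM in chow replicates 1 to 4. Its coefficient of variation was 8.54% in HFD and 43.8% in chow. Its log2 fold change was 0.65 (SE 0.65, edgeR adjusted p = 0.987). Ccl6 was at 45.3, 65.1, 57.7 and 54.2 CPM in HFD, against 53.5, 37.2, 14.5 and 43.7 CPM in chow. Its coefficient of variation was 14.8% in HFD and 44.5% in chow, and its log2 fold change was 0.58 (SE 0.48, edgeR adjusted p = 0.987). HFD replicates 6, 7 and 8 lay above every chow library for Ccl6. Chow replicate 3 was the lowest library for both genes. Over all tested genes the median coefficient of variation was 52.6% in HFD and 59.2% in chow, and 57.9% of genes varied more in chow. The difference in spread was not tested.

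Ccl4, or MIP-1 beta, was near the lower end of what these libraries could measure. It was at 2.18, 2.26, 2.11 and 6.63 CPM in HFD replicates 5 to 8, against 1.57, 2.50, 7.46 and 3.30 CPM in chow replicates 1 to 4. The values rested on 67 counts over the HFD libraries and 73 over the chow libraries. Its log2 fold change was -0.17 (SE 1.23, edgeR adjusted p = 0.989). Ccl4 was highest in chow replicate 3, where its neighbour Ccl3 was lowest. Ccl5, or RANTES, which T cells and NK cells also make, was at 9.73, 2.60, 22.8 and 12.1 CPM in HFD, against 4.27, 22.8, 3.32 and 2.83 CPM in chow. Chow replicate 2 stood far above the other chow libraries and level with HFD replicate 7. The log2 fold change was 0.50 (SE 1.05, edgeR adjusted p = 0.987), and it was 1.75 without chow replicate 2 and -0.037 without HFD replicate 7. In chow replicate 2 the T cell markers summed to 25.3 CPM, all of it Cd4, and NK cell markers to 1.72 CPM. In HFD replicate 7 these sums were 43.0 and 0.422 CPM. With the T and NK cell sum as a covariate the log2 fold change of Ccl5 was 0.31 (SE 1.08). Cd4 made up most of that sum in every library, so the covariate cannot stand for T and NK cells in general.

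Profiles across libraries were close for 2 pairs of ligand genes. The closest pair by profile was Cxcl10 and Ccl5, with a root mean square difference of 0.54 between z-scored log2 profiles over 8 libraries. Both were highest in chow replicate 2, followed by HFD replicate 7. The next closest pair was Ccl3 and Ccl6, at 0.67. For the other 5 tested members the nearest member was at 0.86 to 1.21. These profiles share libraries and depth, and are given as a description. Summed over the 10 members the level was 647 ± 134 CPM in HFD and 734 ± 128 CPM in chow (SD, n = 4), and the groups overlapped. Cxcl16 made up 66.1%, 72.8%, 51.3% and 71.1% of that sum in HFD replicates 5 to 8, against 84.3%, 79.2%, 85.4% and 84.5% in chow replicates 1 to 4. The share was lower in every HFD library than in any chow library. It is a share of CPM not divided by gene length, and it restates the member levels given above. The other 9 members together were at 230 ± 107 CPM in HFD and 123 ± 33.9 CPM in chow, with HFD replicate 6, at 143 CPM, below chow replicate 2, at 168 CPM.

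**Figure D4:**
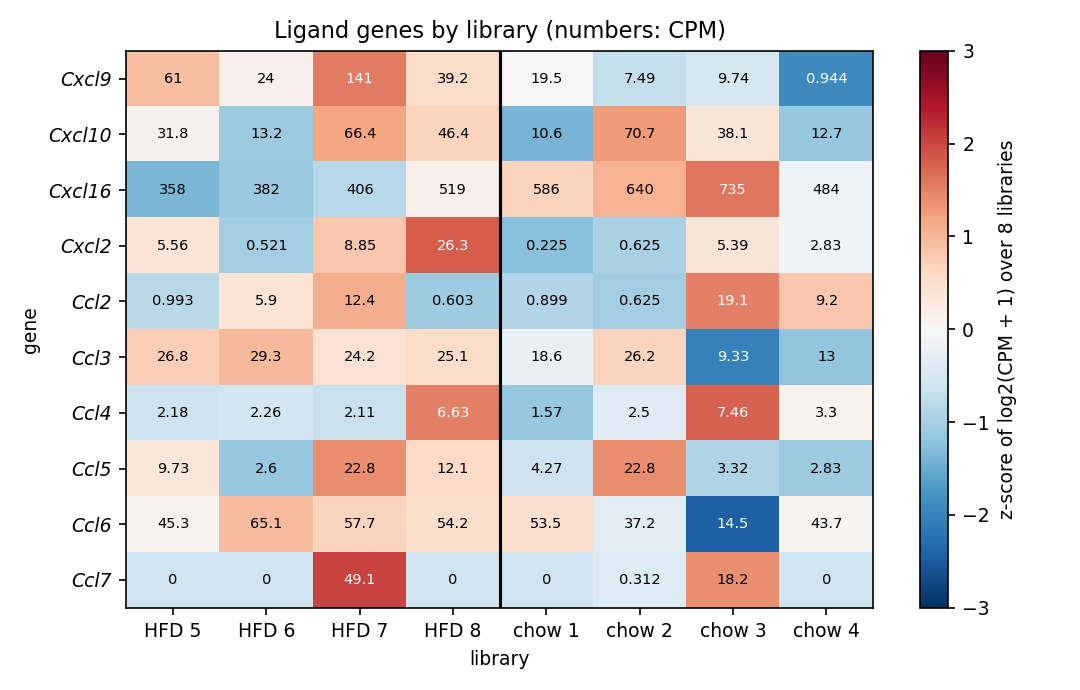
Ligand genes by library, HFD left of chow. Colour is the z-score of log2(CPM + 1) over the 8 libraries and the numbers are CPM. Chow 2 and HFD 7 share high Cxcl10 and Ccl5, and chow 3 and HFD 7 share high Ccl2 and Ccl7.

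Most other chemokine ligand genes were scarce. Of 29 further ligand genes, 13 had 0 counts in all 8 libraries and 7 passed the filter, with 0 called in either direction, 3 log2 fold changes above 0 and 4 below, and a median of -0.92. Ccl25, a ligand of CCR9 best known from thymus and small intestine, was at 18.1, 26.2, 12.6 and 22.9 CPM in HFD replicates 5 to 8, against 65.4, 52.5, 82.5 and 45.5 CPM in chow replicates 1 to 4. All HFD libraries lay below all chow libraries, with a log2 fold change of -1.62 (SE 0.49, edgeR adjusted p = 0.741). Pf4, or Cxcl4, was at 24.2, 8.16, 5.90 and 5.62 CPM in HFD, against 3.59, 4.53, 4.35 and 2.36 CPM in chow. Again the groups did not overlap, and the log2 fold change was 1.56 (SE 1.08, edgeR adjusted p = 0.987). Ccl9, a relative of Ccl6, was at 93.4 ± 57.7 CPM in HFD and 77.4 ± 34.8 CPM in chow. Cxcl14 was at 1.90 ± 1.25 CPM in HFD and 4.68 ± 3.25 CPM in chow.

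Of 10 receptor genes for the members, 6 passed the filter and 0 were called, 2 with log2 fold changes above 0 and 4 below. Ccr1 was at 15.6 ± 10.2 CPM in HFD and 7.97 ± 9.80 CPM in chow. Cxcr6, the receptor of Cxcl16, was at 3.34 ± 2.92 CPM in HFD and 8.94 ± 2.74 CPM in chow, and Cxcr3 at 1.45 ± 2.52 CPM in HFD and 12.7 ± 13.7 CPM in chow (edgeR adjusted p = 0.987 and 0.957).

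No gene was called either in the lists of pathways known to act on these ligands, where no list test was run. Of 12 tested genes of interferon signalling, 0 were called, 2 log2 fold changes were above 0 and 10 below, and the median was -0.23. Irf8, a transcription factor gene of myeloid cells, was at 95.5 ± 14.8 CPM in HFD and 136 ± 77.2 CPM in chow. Ifnar1 and Ifnar2, the type I interferon receptor chains, had log2 fold changes of -0.28 (SE 0.22) and -0.25 (SE 0.25). Of 11 tested interferon-gamma target genes other than chemokines, 0 were called, 7 were above 0 and 4 below, with a median of 0.17. Gbp8 was at 110 ± 37.5 CPM in HFD and 197 ± 75.9 CPM in chow (log2 fold change -0.85, SE 0.33, edgeR adjusted p = 0.784), opposite in sign to Cxcl9. Cd274, which encodes PD-L1, was at 62.2 ± 43.1 CPM in HFD and 34.4 ± 26.4 CPM in chow. Gbp5 was at 18.8 ± 16.6 CPM in HFD and 9.97 ± 3.73 CPM in chow, and Gbp3 at 74.2 ± 34.3 CPM in HFD and 106 ± 36.2 CPM in chow.

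Of 13 tested NF-kB pathway genes, 0 were called, 4 were above 0 and 9 below, with a median of -0.45. Nfkb1 was at 128 ± 43.5 CPM in HFD and 192 ± 21.6 CPM in chow (log2 fold change -0.58, SE 0.28, edgeR adjusted p = 0.912). The NF-kB inhibitor gene Tnfaip3 was at 46.1, 30.6, 138 and 30.1 CPM in HFD replicates 5 to 8, against 48.5, 30.9, 5.60 and 32.8 CPM in chow replicates 1 to 4. Its highest level fell in HFD replicate 7. Rela and Rel had log2 fold changes of -1.23 (SE 0.77) and -0.30 (SE 0.21). Of 7 tested genes whose products bind or process chemokines or their transcripts, 0 were called and the median was 0.02. Adam10 and Adam17, the proteases that shed Cxcl16 from the membrane, were at 463 ± 45.6 and 458 ± 23.1 CPM in HFD, against 450.2 ± 27.4 and 411 ± 90.2 CPM in chow. Zfp36, which destabilises cytokine mRNAs, was at 154 ± 78.7 CPM in HFD and 207 ± 78.8 CPM in chow.

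The genes most like a member in profile were sought among the 10120 other tested genes. For Cxcl9 these were Ran, Zzz3 and Gm43914, with root mean square differences of 0.30, 0.31 and 0.35 between z-scored profiles over 8 libraries. Ran, a nuclear transport GTPase gene, was at 56.2 ± 15.3 CPM in HFD and 28.8 ± 5.66 CPM in chow. For Cxcl16 they were BC037034, Fth1 and Mt2, at 0.26, 0.26 and 0.28. Fth1, the ferritin heavy chain gene, was at 1546 ± 129 CPM in HFD and 2019 ± 339 CPM in chow. These likenesses are given as a description.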

How the data were processed

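RNA from CD11b+ F4/80+ islet cells was amplified from 500 pg with the Ovation RNA-Seq System V2, per the labels' protocols. FastQC, Trim Galore, STAR and the GRCm38 build are named in the submitters' processing notes. For versions, the counting program, strand setting and annotation release, the sources used here give nothing. The deposited values are expected counts per Ensembl gene, not scaled between libraries. They were rounded to whole numbers before testing. Amplified reads carry no stated molecular identifiers, so floors cover counting error only.

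All genes were tested with edgeR (4.0.16, R 4.3.3): TMM scaling, filterByExpr with the diet groups (10129 genes kept), a robust quasi-likelihood fit on diet alone, and two-sided Benjamini-Hochberg adjustment at 0.05. SEs came from the log2 fold change and its F statistic. Alternatives used DESeq2 (1.42.0), limma-voom with quality weights (limma 3.58.1), other scalings, filters and covariates, and each library left out in turn. The edgeR step was run on simulated data with known changes. Only the simulation with a spread set below that of these libraries had a pass mark. It does not show which changes could be called here. The acinar covariate, the 5 acinar-low libraries (under 900 CPM) and transcript length were added after seeing the data. Marker sums were compared by exact permutation over 70 arrangements on log2(CPM + 1). Coordinates, exon lengths and overlaps came from GENCODE M21 on GRCm38. All 28 pairs of libraries differed by more than sampling noise (chi-square per degree of freedom at least 38.4).

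The text names the 10 members, up to 4 tested genes with the smallest p of each ligand, receptor and pathway list, 3 sort markers and the 3 genes most like Cxcl9 and Cxcl16 in profile. Some genes that this rule picks are not reported here. Other genes were chosen after their values were seen. Members and lists were chosen with earlier results of these data known. Nothing says whether the pools were sorted or prepared on separate days, so p-values measure the spread between these pools.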

Additional observations from a re-analysis of the deposited data

Results flagged for a closer look

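In 20 sets of 4 libraries (10 genes in each diet), 4 held a library that stood apart from the other 3 by a Dixon test at the 95% level. For normally distributed values chance gives about 1 in 20. That rate need not hold for CPM from low counts. With 3 libraries at 0 counts, any value above 0 in the remaining library is flagged. The flags are therefore given as a description. Ccl4 was at 6.63 CPM in HFD replicate 8, against 2.26 CPM in the nearest HFD library. Ccl5 was at 22.8 CPM in chow replicate 2, against 4.27 CPM in the nearest chow library. Ccl7 was at 49.1 CPM in HFD replicate 7, where the other HFD libraries had 0 counts, and at 18.2 CPM in chow replicate 3, against 0.312 CPM in the nearest chow library.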

How the results depend on the processing

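The number of genes called was 0 in the fit as reported, 45 with no filter on low counts, 92 with DESeq2 and 1 with limma-voom, and it ranged from 0 to 11 with each library left out, the 11 being without HFD replicate 8. The number of ligand genes called was 0 as reported and 1, Cxcl9, with no filter or DESeq2; it was 0 with each library left out, a range of 0 to 0. Of 178 fold changes of the 9 tested members under an alternative, 166 kept their direction and their side of the threshold, 2 (both Cxcl9) passed it and 10 changed sign. The sign of Cxcl10 turned with the stellate and fibroblast covariate (-0.026), in the acinar-low libraries (-0.43) and with libraries left out (range -0.12 to 0.94). In the acinar-low libraries Ccl4 was at 0.84 and Ccl5 at -0.75. With libraries left out, Ccl2 ranged from -1.56 to 0.50, Ccl4 from -0.76 to 0.42 and Ccl5 from -0.037 to 1.75. With the stellate and fibroblast covariate Cxcl9 was at 3.69, Ccl2 at -2.72 and Ccl6 at 1.27. In the acinar-low libraries Cxcl2 was at 4.55, with 1 and 4 counts in chow replicates 1 and 2. Ccl2 had no value in the acinar-low libraries, and Ccl4 none with a filter of 5 CPM in 4 libraries, since neither passed those filters. Scaling by RLE, upper quartile or library totals changed no member's sign. The endothelial marker sum, 0.03 as reported, was -0.27 with a pseudocount of 0.1 CPM. The cause of these changes was not tested. No paired analysis was possible because the replicate numbers run from 5 to 8 in HFD and from 1 to 4 in chow. Depth limits Ccl2, Ccl4, Ccl5, Ccl7 and Cxcl2, whose values rest on at most 233 counts per diet. Cxcl9 had 186 counts over the chow libraries, and the 233 counts of Ccl7 in HFD all came from replicate 7.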
